A study of Mus musculus with 24 samples.

Results

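The skin of mice in the last hours before a scheduled meal was compared with the skin of mice earlier in the same fast. Of the 24 RNA-seq libraries of the series, 9 entered the comparison, chosen by the number of hours between the opening of the food window and sampling. The 5 libraries called "before the meal" here were taken 23 or 24 h after food had last opened, and the 4 libraries called "late fast" were taken 19 or 20 h after it. All came from whole back skin of male wild-type C57BL/6NCrl mice, an inbred laboratory strain, 8 weeks old, with hair follicles labelled as resting (telogen). Each library was made from RNA pooled from 2 to 4 animals kept under light for 12 h a day, and all 3 feeding groups had been on restricted feeding for 18 to 21 days. Times are given as ZT, the hours since lights on. ED mice had food from ZT0 to ZT4, MD mice from ZT5 to ZT9 and EN mice from ZT12 to ZT16. A library is named by its feeding group and its sampling time. ED00, ED24 and EN12 were taken 24 h after food had opened, which is 20 h after it had closed. MD04 and MD28 were taken 23 h after food had opened and 19 h after it had closed. In the late fast, ED20 and EN08 stood 20 h after opening and 16 h after closing, and MD00 and MD24 stood 19 h after opening and 15 h after closing. No source used here says whether the 3 pools taken at the hour of opening were collected before the mice reached the food.

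In 4 places the libraries form consecutive steps of 4 h, namely ED20 to ED24, MD00 to MD04, MD24 to MD28 and EN08 to EN12. ED00 has no library 4 h before it. These steps cross the end of the night in ED, the early light phase in MD and the end of the light phase in EN, so within a feeding group the approach of the meal and the time of day cannot be told apart. A term for feeding group was part of every comparison unless stated otherwise. Runs with a block, either the L number of the labels or the consecutive steps as pairs, had that block instead of the feeding group term.

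Mice that eat at a fixed hour show food anticipation: activity, body temperature and blood corticosterone climb before the food arrives. Corticosterone, the main glucocorticoid of mice, binds the glucocorticoid receptor (gene Nr3c1), which moves to the nucleus, binds palindromic response elements in DNA and switches on genes such as Tsc22d3, Fkbp5 and Per1. Skin also makes active hormone locally through the enzyme encoded by Hsd11b1. The same hormone follows a daily rhythm in mice fed at will, peaking near the start of the active phase.

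Total exon counts per library lay between 13091637 (ED24) and 22395991 (MD24). Levels are given as CPM, read counts scaled to a common library size, and differences as log2 ratios of before the meal to late fast, with their SE. Some libraries stood apart in the RNA of other cell types. Summed over 15 hair shaft genes, ED24 had 1080 CPM, against 25.1 to 50.5 CPM in the other 8 libraries, although all skin was labelled telogen, and 8 of the 15 were at 0 in at least 1 library. EN12 had 132 CPM summed over 9 liver transcripts, a list chosen after its values were seen, against 3.60 to 12.9 CPM in the others. The 13 markers of fast skeletal muscle summed to between 14108 and 29416 CPM before the meal (median 20976) and between 9880 and 28891 CPM in the late fast (median 14363). MD24 was the muscle-rich late-fast library. The 9 adipocyte markers summed to 1968 to 4305 CPM before the meal and 1491 to 3127 CPM in the late fast. No fast muscle or adipocyte marker was at 0 in any library. In whole skin, more cells of a type and more RNA per cell cannot be told apart.

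**Figure D1:**
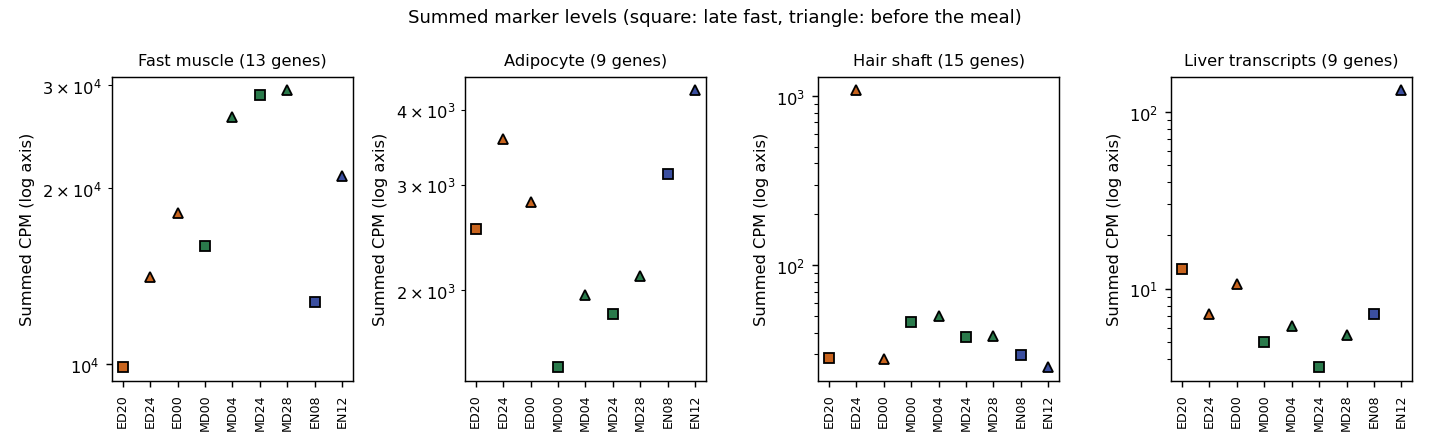
Summed CPM (log axes) of marker genes of fast muscle, fat, hair shaft and liver in each of the 9 libraries; squares are late fast, triangles before the meal, and colours mark the feeding groups. Hair shaft RNA is high in ED24 (1080 CPM) and liver RNA in EN12 (132 CPM).

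No gene passed the test for a difference between before the meal and late fast. Among 15783 genes tested, 0 had an adjusted p under 0.05 (edgeR's quasi-likelihood F test with Benjamini-Hochberg adjustment; 5 residual degrees of freedom), and the smallest adjusted p was 0.0537. At an unadjusted p under 0.05 there were 1047 genes, 690 of them higher before the meal and 357 lower. The Wald test of DESeq2 on the same libraries called 51 genes (0.323%), 46 higher and 5 lower. The count moved with single libraries: edgeR's test called 221 genes (1.39%) without MD24, 193 higher and 28 lower, 8 without ED00 (0.0511%), 8 without ED24 (0.051%), 4 without ED20 (0.0251%) and 0 without each of the other 5. Because no gene passed, the values below are differences between these pools.

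Glucocorticoid-induced genes stood higher before the meal as a group. All 28 genes of the list were tested and all 28 had a log2 difference above 0, as had 51.9% of all genes tested. Of the 28, 19 were higher at an unadjusted p under 0.05 and 0 lower, against 4.37% of all genes higher and 2.26% lower, and 0 passed the adjusted threshold, as over all genes (0.0%). Their median log2 difference was 0.53, against 0.007 over all genes. In 4 of the 28 genes (Mt1, Mt2, Glul and Rhob) the before-meal libraries lay wholly above the late-fast libraries, which held for 0.482% of all genes. DESeq2 called 6 of the 28 (Mt1, Mt2, Glul, Klf15, Map3k6 and Arrdc2), all higher.

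The steps were unequal. In EN08 to EN12 all 28 genes were higher, with a median of 0.79, where 52.7% of all genes were higher. MD00 to MD04 had 27 of 28 higher (median 0.73; 49.6% of all genes) and MD24 to MD28 had 24 of 28 (median 0.48; 50.0% of all genes). In ED20 to ED24 only 14 of 28 were higher and the median was -0.06 (53.3% of all genes). Set against the same ED20, the ED00 pool had 22 of 28 higher and a median of 0.38 (51.6% of all genes). ED00 and ED24 share their hour in the feeding cycle, so the 2 pools of that hour differed from each other. Without EN08 the list's median was 0.34, with 12 of 28 genes higher at an unadjusted p under 0.05 (2.4% of all genes). Without EN12 it was 0.35, also with 12 of 28 higher (2.42% of all genes). EN08 and EN12 are the only EN pools here, so with the feeding group term either run drops EN from the contrast. The runs without EN08 and without EN12 are therefore the same check. Leaving out ED24, the library with hair shaft RNA, the list's median was 0.61 with 22 of 28 genes higher at an unadjusted p under 0.05 (4.25% of all genes). EdgeR's test then called 8 genes (0.051%), of which 5 were members, namely Fkbp5, Mt1, Mt2, Map3k6 and Klf15. ED24 was also the before-meal pool in which the list did not rise, so a higher median without ED24 follows from that choice. The member calls of that run are no separate support. With both ED24 and EN12 left out the median was 0.47, with 18 of 28 higher (2.2% of all genes). That run drops EN from the contrast as well. With the mean of the fast muscle list as a further term the median was 0.56, with 11 of 28 higher at an unadjusted p under 0.05 (3.1% of all genes).

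**Figure D2:**
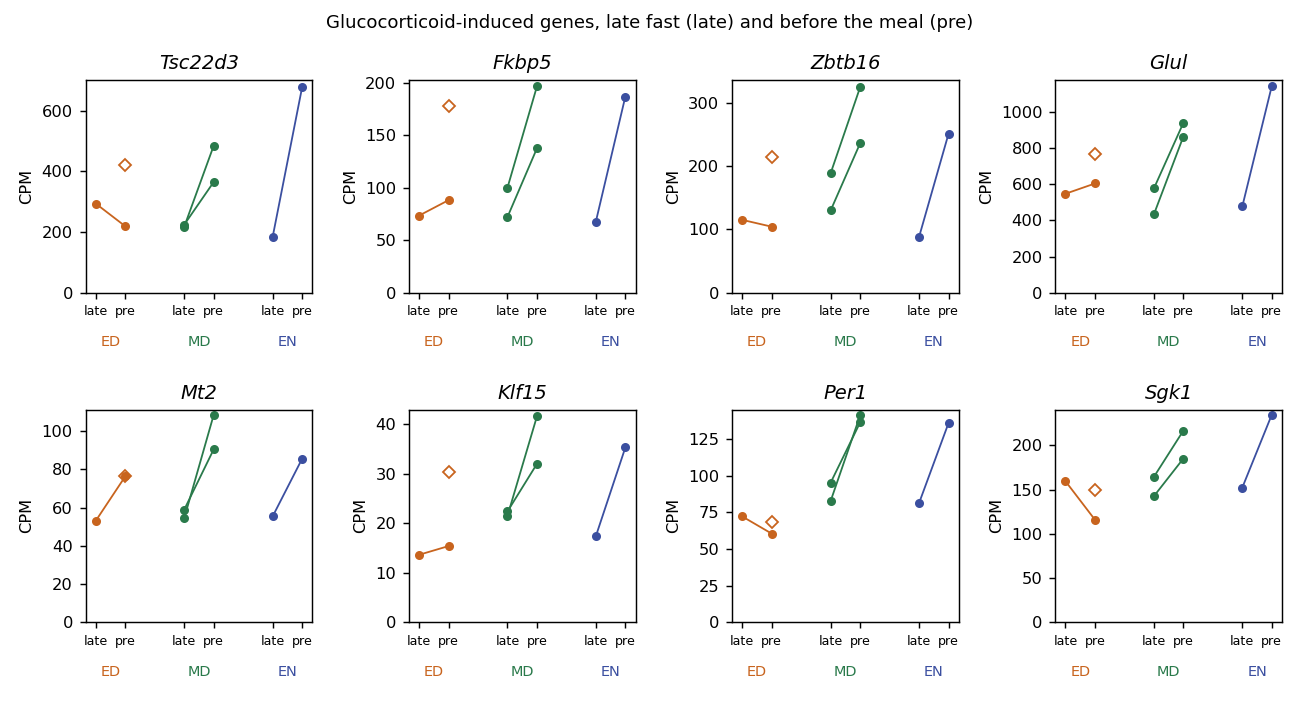
CPM of 8 glucocorticoid-induced genes in each library; lines join the 4 consecutive steps from late fast (late) to before the meal (pre), and the open diamond is ED00, which has no library 4 h before it. The lines climb in MD and EN for all 8 genes, and ED24 lies below ED20 for Tsc22d3, Zbtb16, Per1 and Sgk1.

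Tsc22d3 encodes GILZ, an anti-inflammatory protein and a standard readout of glucocorticoid action. It had 293 CPM in ED20, 217 CPM in MD00, 224 CPM in MD24 and 184 CPM in EN08. Before the meal it had 421 CPM in ED00, 219 CPM in ED24, 485 CPM in MD04, 365 CPM in MD28 and 678 CPM in EN12. Only ED24 fell within the late-fast range, and the log2 difference was 0.89 ± 0.37 (SE; n = 5 and 4; adjusted p = 0.501, edgeR). Fkbp5, whose protein binds the receptor and lowers its affinity for the hormone, had 73.3 CPM in ED20, 99.9 CPM in MD00, 72.0 CPM in MD24 and 67.7 CPM in EN08. It had 178 CPM in ED00, 88.1 CPM in ED24, 196 CPM in MD04, 137 CPM in MD28 and 187 CPM in EN12. ED24 was again the only before-meal pool inside the late-fast range. The difference of 1.04 ± 0.29 on the log2 scale, the largest of the 28, had an adjusted p of 0.36 (edgeR).

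Zbtb16, a zinc finger transcription factor induced by glucocorticoids in many tissues, had 88.1 to 189 CPM in the late fast, and before the meal 104 CPM in ED24, 214 CPM in ED00, 236 CPM in MD28, 251 CPM in EN12 and 325 CPM in MD04. Its log2 difference was 0.86 ± 0.33 (adjusted p = 0.441, edgeR). Klf15, a transcription factor of amino acid and lipid breakdown, had 13.6 to 22.4 CPM in the late fast. Before the meal it had 15.4 CPM in ED24 and 30.4 to 41.5 CPM in the other 4 pools, a log2 difference of 0.81 ± 0.23 (adjusted p = 0.36, edgeR). For both genes the pools other than ED24 lay above the whole late-fast range.

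Metallothioneins bind zinc and copper and are induced by metals as well as by glucocorticoids. Mt2 had 53.2 CPM in ED20, 54.5 CPM in MD00, 59.0 CPM in MD24 and 55.4 CPM in EN08, and 76.4 CPM in ED00, 76.4 CPM in ED24, 109 CPM in MD04, 90.5 CPM in MD28 and 85.6 CPM in EN12. The late-fast pools were within a narrow band and every before-meal pool was above it. The log2 difference was 0.68 ± 0.08 (adjusted p = 0.0537, edgeR). Mt1 had 76.0 to 94.7 CPM in the late fast and 106 to 160 CPM before the meal, a log2 difference of 0.73 ± 0.12 (adjusted p = 0.0638, edgeR). The 2 genes are related neighbours on chromosome 8, and how any reads that match both were counted is not known. To that extent their separate values are uncertain. Unlike Tsc22d3 and Zbtb16, both were higher in ED24 than in ED20.

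Glul encodes glutamine synthetase, which makes glutamine from glutamate and ammonia. It had 548 CPM in ED20, 578 CPM in MD00, 434 CPM in MD24 and 478 CPM in EN08, and 768 CPM in ED00, 605 CPM in ED24, 942 CPM in MD04, 866 CPM in MD28 and 1146 CPM in EN12. The groups did not overlap, with the highest value in EN12 and the lowest before-meal value in ED24. The log2 difference was 0.77 ± 0.20 (adjusted p = 0.36, edgeR). When the contrast was taken from all 24 libraries with a daily cosine and sine term, Glul was among the 5 genes (0.0307%) that passed, at 0.79 ± 0.14 (adjusted p = 0.0382, edgeR).

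Per1, Sgk1 and Klf9 had log2 differences below the median of the list. Per1, a clock gene with glucocorticoid response elements, had 72.1 to 95.1 CPM in the late fast. It had 136 to 141 CPM in MD04, MD28 and EN12 but 68.2 CPM in ED00 and 60.4 CPM in ED24, below every late-fast pool, and its log2 difference was 0.41 ± 0.18 (adjusted p = 0.63, edgeR). Sgk1, a kinase that regulates sodium transport and cell survival, had 142 to 164 CPM in the late fast and 116 to 234 CPM before the meal, with both ED pools below ED20 (log2 difference 0.24 ± 0.19; adjusted p = 0.807, edgeR). Klf9, a transcription factor that restrains keratinocyte proliferation, had a log2 difference of 0.27 ± 0.20 (adjusted p = 0.778, edgeR). The smallest difference in the list was 0.10 (Dusp1, a phosphatase of the MAP kinases) and Pik3r1, a subunit of PI3 kinase, was also near 0.10. Pdk4, which blocks the entry of pyruvate into mitochondria, was lower in both MD steps and higher in ED and EN.

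The receptor and the genes that handle the hormone had no common direction. Of 7 genes tested in that list, 1 was higher at an unadjusted p under 0.05 and 1 lower (4.37% and 2.26% of all genes). Hsd11b1, which regenerates corticosterone from its inactive form, had 25.9 CPM in ED20, 14.8 CPM in MD00, 16.1 CPM in MD24 and 27.8 CPM in EN08. It had 33.0 CPM in ED00, 37.2 CPM in ED24, 21.1 CPM in MD04, 25 CPM in MD28 and 56.7 CPM in EN12. It was higher in every step, ED24 included, but the feeding groups differed in level so that the groups overlapped (log2 difference 0.64 ± 0.12; adjusted p = 0.194, edgeR). In the 24 libraries with the daily terms it passed, at 0.70 ± 0.12 (adjusted p = 0.0382, edgeR). Nr3c1, the receptor itself, had 248 to 291 CPM in the late fast and 222 to 247 CPM before the meal. The ranges met within 1 CPM without overlapping, and the log2 difference was -0.20 ± 0.06 (adjusted p = 0.723, edgeR). Groups lying apart in that direction were found for 0.475% of all genes. The mineralocorticoid receptor Nr3c2 and the chaperones Hsp90aa1, Hsp90ab1, Fkbp4 and Ptges3 had log2 differences between -0.03 and 0.09.

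Inflammatory genes that glucocorticoids repress gave no common direction. Of 8 tested, 4 had a log2 difference above 0 and the median was -0.02. Mmp3, a matrix protease, was lower at an unadjusted p under 0.05, with a log2 difference of -0.48 ± 0.17, and Il1b and Ccl2 had differences of 0.01 ± 0.34 and 0.11 ± 0.65.

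Reads within introns come largely from unspliced transcripts and were counted in separate rows. Of the 28 glucocorticoid-induced genes, 25 had intron rows that could be tested, 7 were higher at an unadjusted p under 0.05 and 0 lower, against 3.23% higher and 3.09% lower among all 14689 intron rows. None of the 14689 rows (0.0%) had an adjusted p under 0.05 (edgeR), where 928 had an unadjusted p under 0.05. The members' median was 0.31, against 0.005 over all intron rows. The intron log2 difference was 0.60 for Tsc22d3, 0.67 for Fkbp5, 0.71 for Klf15 and 0.59 for Glul. Pdk4, with an exon difference of 0.33, had an intron difference of 0.97. For the short genes Mt1 and Mt2 the intron differences were 0.25 and 0.31.

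The glucocorticoid receptor binds a palindrome whose best conserved letters are GNACANNNTGTNC, where N is any base. RefSeq promoters (GRCm38.p6, from 250 bases before to 50 bases after each start site) were found for 25 of the 28 genes, and 5 of the 25 held this motif on either strand. Counted by promoter, 6 of 38 promoters of the list held it (15.8%), against 0.475% of 32851 promoters. It was found in 0 of 17 clock genes with a promoter. The list was drawn up from known glucocorticoid targets, so this is a property of the list. The 5 windows are shown because they are the members with the full element close to the start site, with the motif in capitals and the coordinates and strand in brackets.

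Mt1 (chr8:94178975-94179027, plus strand, 94 bases before the start): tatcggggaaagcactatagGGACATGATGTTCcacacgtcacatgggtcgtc
Map3k6 (chr4:133240617-133240669, plus strand, 181 bases before the start): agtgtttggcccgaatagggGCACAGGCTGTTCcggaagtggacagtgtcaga
Fam107a (chr14:8309865-8309917, minus strand, 118 bases before the start): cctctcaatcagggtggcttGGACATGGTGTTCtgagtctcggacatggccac
Sgk1 (chr10:21993682-21993734, plus strand, 188 bases before the start): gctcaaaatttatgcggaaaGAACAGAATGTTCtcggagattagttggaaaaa
Slc10a6 (chr5:103629534-103629586, minus strand, 163 bases before the start): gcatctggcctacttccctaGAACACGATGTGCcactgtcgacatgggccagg

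Genes with this element near the start were not set apart by their values. Mt1 and Map3k6, a stress kinase, had log2 differences of 0.73 and 0.66. Fam107a, a stress-induced actin-binding protein, had 1.04 ± 0.56. Slc10a6, a carrier of steroid sulfates, had 0.48 ± 0.25, and Sgk1 had 0.24 ± 0.19. The E-box CACGTG, a palindrome bound by the clock factors CLOCK and BMAL1, was present in promoters of 6 of 25 glucocorticoid-induced genes. It was present in 5 of 17 clock genes and in 8.09% of all genes with a promoter. Counted by promoter, the shares were 15.8%, 27.3% and 7.15%. Per1 is in both lists and is counted in each. Fkbp5 and Per1 are shown as members that carry the E-box, with the motif in capitals.

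Fkbp5 (chr17:28486293-28486338, minus strand, 169 bases before the start): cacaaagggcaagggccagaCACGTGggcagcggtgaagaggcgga
Per1 (chr11:69098763-69098808, plus strand, 166 bases before the start): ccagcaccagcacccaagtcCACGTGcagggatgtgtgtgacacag

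Over the whole day the step after the meal opened had the lowest median of the list and the step before it the highest. In a fit of all 24 libraries in 6 classes of hours since food opened, the median log2 difference of the 28 genes between 23-24 h and 19-20 h was 0.54, with 14 genes higher at an unadjusted p under 0.05 (3.4% of all genes) and 0 lower (2.54%). From 23-24 h to the next 3-4 h the median was -0.63, with 14 genes lower at an unadjusted p under 0.05 (6.9% of all genes) and 0 higher (5.84%). In that step 59 genes of the 16287 tested (0.362%) passed (adjusted p under 0.05, edgeR), none of them a member. The other steps had medians of 0.08 (7-8 h against 3-4 h), 0.27 (11-12 h against 7-8 h), -0.34 (15-16 h against 11-12 h) and 0.08 (19-20 h against 15-16 h). Pdk4 was the only member that passed in any of the 6 steps: it rose from 7-8 h to 11-12 h, by 3.17 on the log2 scale (adjusted p = 0.00435, edgeR), a step in which 0.0123% of all genes passed. The 6 steps share libraries with their neighbours.

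The time of the daily high was not the same in the 3 feeding groups. For each library the median over the 28 genes of log2 CPM, relative to each gene's mean over the 24 libraries, was ranked within its group. EN12, at lights off and at food opening, was highest of the 8 EN libraries, at 0.78, and EN16 came next at 0.21. In EN12, 23 of 28 members had their highest EN value, against 18.3% of all genes. In MD the highest was MD16, 11 h after food opened and in the dark, at 0.91. MD04 and MD28 stood at 0.80 and 0.55, with MD12 between them at 0.60, so MD had a high before the meal and a high in the early night. In ED, ED00 (0.33) and ED12 (0.30) were highest and ED24 came after ED16 and ED20, at -0.13. There 13 of 28 members were highest in ED00 (11.8% of all genes) and 10 in ED12 (16.7% of all genes). ED and MD thus each had a high near lights off as well as a high in the pre-meal class, and in EN the 2 times coincide.

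**Figure D3:**
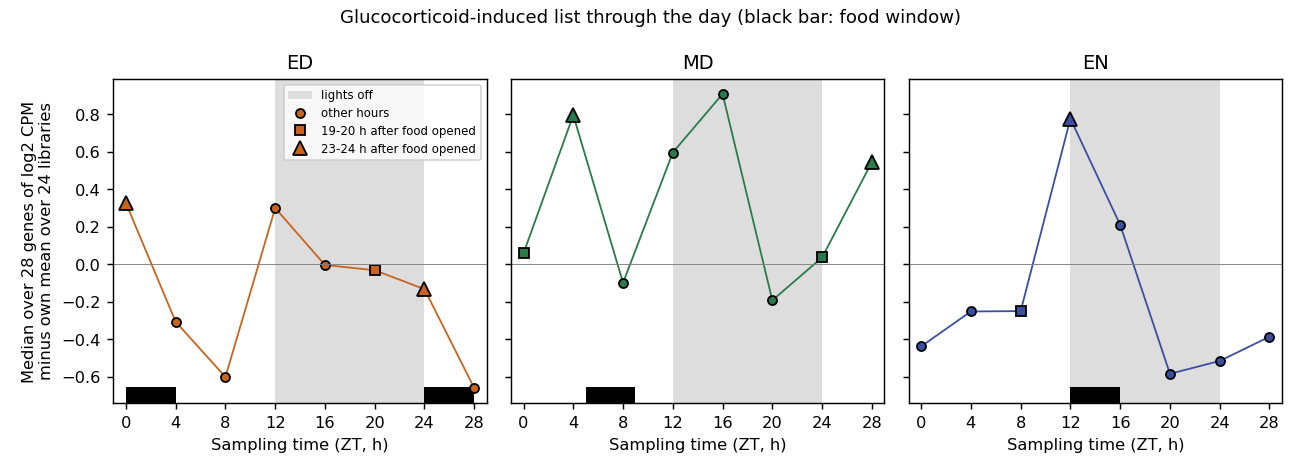
Median over the 28 glucocorticoid-induced genes of log2 CPM relative to each gene's mean over 24 libraries, by sampling time in each feeding group; triangles are before the meal, squares late fast, grey is darkness and the black bar is the food window. EN12 (0.78) stands above all other EN libraries, MD has highs at MD04 (0.80) and MD16 (0.91), and ED24 (-0.13) is lower than ED00 (0.33).

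Tsc22d3 shows this course in single values, scaled here over the 24 libraries. In EN it had 180 CPM in EN08, 662 CPM in EN12 and 313 CPM in EN16, and 82.6 to 123 CPM in the other 5 pools. In MD it had 477 CPM in MD04, 209 CPM in MD08, 522 CPM in MD12, 663 CPM in MD16 and 122 CPM in MD20. In ED it had 415 CPM in ED00, 88.4 CPM in ED08 and 379 CPM in ED12. The pre-meal pools were thus among the high ones in each group but were not the only ones, and ED24 with 214 CPM was not among them.

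Genes of fat and of stored fuel were also higher before the meal over the 9 libraries, but not in every step. Of 13 genes of lipolysis and glyceroneogenesis, 7 were higher at an unadjusted p under 0.05 and 0 lower (median 0.30), where 4.37% of all genes were higher and 2.26% lower. Pnpla2, the lipase that starts triglyceride breakdown, had 121 CPM in ED20, 99.9 CPM in MD00, 111 CPM in MD24 and 133 CPM in EN08, and 175 CPM in ED00, 182 CPM in ED24, 139 CPM in MD04, 156 CPM in MD28 and 224 CPM in EN12. Its groups did not overlap and its log2 difference was 0.57 ± 0.07 (adjusted p = 0.0638, edgeR). Cidec, a protein that fuses lipid droplets, had 0.53 ± 0.10 (adjusted p = 0.207, edgeR), and G0s2, an inhibitor of that lipase, 0.81 ± 0.25. Among 21 genes of fatty acid and triglyceride synthesis 7 were higher and 0 lower by the same measure (median 0.21; 4.37% and 2.26% of all genes). Thrsp, a regulator of lipid synthesis known to respond to feeding and thyroid hormone, had 52.2 to 91.9 CPM in the late fast and 86.7 to 174 CPM before the meal, and was higher in every step (0.70 ± 0.10; adjusted p = 0.0638, edgeR). So both breakdown and synthesis genes were on the higher side. In MD24 to MD28, however, the list medians were 0.02 for lipolysis and glyceroneogenesis and -0.04 for fatty acid and triglyceride synthesis. In the other consecutive steps they were 0.23 to 0.53 and 0.21 to 0.34. The adipocyte markers did the same, with 5 of 9 higher (4.37% of all genes), 0 lower (2.26%) and a median of 0.37, led by Cfd (0.50 ± 0.11) and Fabp4 (0.41 ± 0.12). The part of adipocyte RNA in the lipid genes was not tested.

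Fast skeletal muscle genes were another group on the higher side. Slow muscle markers had no common direction: of 6 tested, 0 were higher and 0 lower at an unadjusted p under 0.05 (median 0.17). Their step medians were 1.07 in ED20 to ED24, 0.94 in MD00 to MD04, -1.02 in MD24 to MD28 and -0.59 in EN08 to EN12. In the MD libraries they summed to only 2.00 to 3.18 CPM. Of 13 fast muscle genes, 11 were higher at an unadjusted p under 0.05 and 0 lower (median 0.54), where 4.37% of all genes were higher and 2.26% lower. The 11 became 4 without ED20 (2.82% of all genes), 5 without EN08 (2.4%), 5 without EN12 (2.42%) and 4 without both ED24 and EN12 (2.2%). With the feeding group term, the run without ED20 dropped ED from the contrast, and the other runs dropped EN. The count was 3 without the feeding group term (1.67%) and 4 with the L number of the labels as a block in its place (4.53%). Myh4, the myosin of the fastest fibres, had 2842 CPM in ED20, 3932 CPM in MD00, 7003 CPM in MD24 and 3040 CPM in EN08. It had 4521 CPM in ED00, 3296 CPM in ED24, 8020 CPM in MD04, 7623 CPM in MD28 and 4696 CPM in EN12. For Myh4, MD24 was below both pre-meal MD pools but well above MD00. Summed over the 13 markers, MD24 had 28891 CPM, between MD04 (26527 CPM) and MD28 (29416 CPM). The median of the muscle list was 0.03 in MD24 to MD28 against 0.59 to 0.79 in the other 3 consecutive steps. The genes that edgeR's test called once MD24 was left out included 12 of these 13, against 1.39% of all genes. MD24 had the highest sum of these markers in the late fast, so a larger difference without MD24 follows from that choice. Glycogen genes were higher for 5 of 10 at an unadjusted p under 0.05 (median 0.34; 4.37% of all genes). Their median was -0.03 in MD24 to MD28. Pygm, the muscle glycogen phosphorylase, was at 0.58 ± 0.29, but at -0.08 with the fast muscle list as a further term.

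Other muscle genes among the named ones were Mylk4, a myosin light chain kinase of striated muscle, and Mstn, myostatin, the secreted brake on muscle growth. Mylk4 had 28.6 to 59.6 CPM in the late fast and 37.8 to 139 CPM before the meal (1.03 ± 0.17; adjusted p = 0.0537, edgeR). Unlike Myh4, it was 59.6 CPM in MD24 against 120 CPM in MD28. Mstn had 17.3 to 64.0 CPM in the late fast and 27.3 to 105 CPM before the meal, with a log2 difference of 1.03 ± 0.23 (adjusted p = 0.167, edgeR). Among 18 FOXO and insulin-response genes, which insulin represses in the fed state, 8 were higher at an unadjusted p under 0.05 and 0 lower (median 0.28; 4.37% and 2.26% of all genes). Klf15 is in this list and in the glucocorticoid-induced list, so these counts overlap. Lpin1 is likewise in the glucocorticoid-induced list and in that of fatty acid and triglyceride synthesis. Trim63, a ubiquitin ligase of muscle wasting, had 0.97 ± 0.35, and Foxo1 and Foxo3 had 0.31 ± 0.12 and 0.34 ± 0.14. Genes of fasting and fatty acid oxidation were higher in 4 of 20 and lower in 0 (median 0.13; 4.37% and 2.26% of all genes). Their median was -0.13 in MD24 to MD28.

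**Figure D4:**
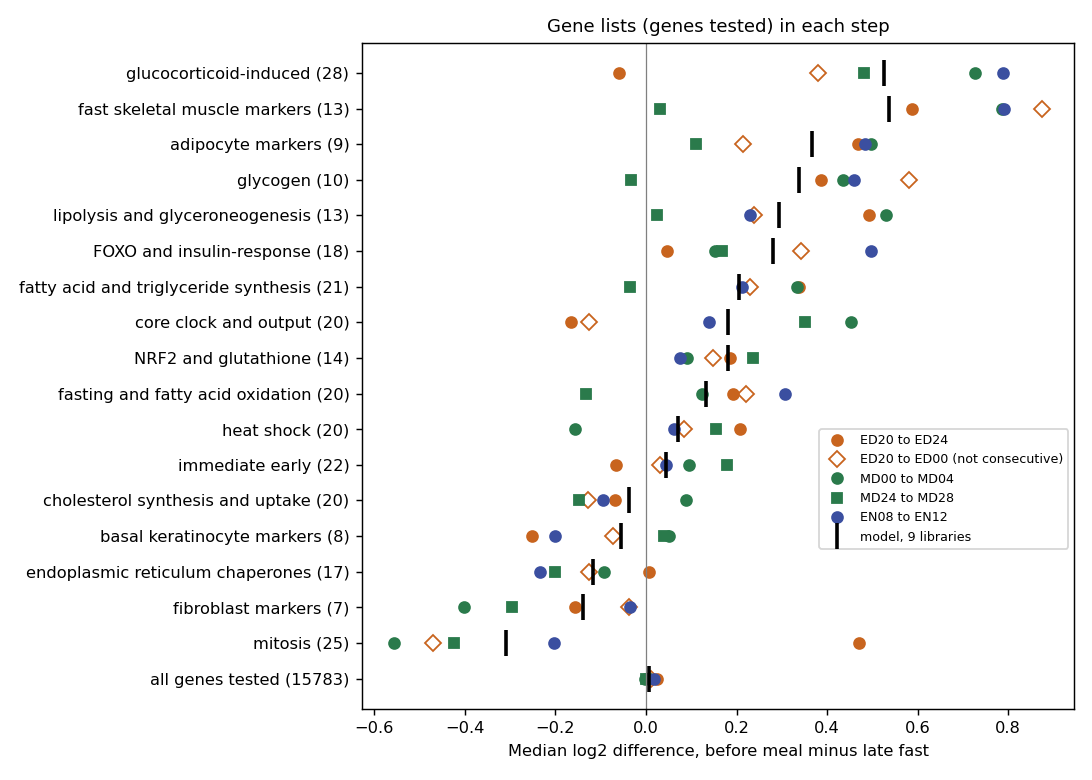
Median log2 difference (before the meal minus late fast) of each gene list in each step, with the number of genes tested in brackets; black bars are the medians from the 9-library model. The glucocorticoid-induced list lies at 0.48 to 0.79 in MD and EN and at -0.06 in ED20 to ED24, while the fast muscle list is near 0 only in MD24 to MD28.

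In exon rows, chaperones of the endoplasmic reticulum leaned the other way. Of 17 tested, 5 were lower at an unadjusted p under 0.05 and 1 higher (median -0.12), where 2.26% of all genes were lower and 4.37% higher. The median in ED20 to ED24 was 0.008. Intron rows of the list did not share the lean: of 16 tested, 1 was higher and 0 lower (3.23% and 3.09% of all intron rows), with a median of 0.11. The intron differences were 0.20 for Hsp90b1 and 0.06 for Dnajc3. Hsp90b1, which folds secreted and membrane proteins, had 270 to 346 CPM in the late fast and 224 to 317 CPM before the meal, lower in each step (-0.32 ± 0.08; adjusted p = 0.492, edgeR). Dnajc3, a cochaperone, had 124 to 131 CPM in the late fast and 105 to 120 CPM before the meal, with no overlap (-0.21 ± 0.03; adjusted p = 0.605, edgeR). Herpud1, part of the machinery that disposes of misfolded proteins, was the exception at an unadjusted p under 0.05, with 0.31 ± 0.04. In all, 4 of the 17 genes had a log2 difference above 0. Kdelr3, the receptor that returns such chaperones from the Golgi, had -0.47 ± 0.09 (adjusted p = 0.36, edgeR). The lowest p among lower genes belonged to Aldh1l2, a mitochondrial enzyme of folate metabolism. Aldh1l2 had 46.6 CPM in ED20, 27.2 CPM in MD00, 21.5 CPM in MD24 and 52.3 CPM in EN08, and 17.3 CPM in ED00, 31.8 CPM in ED24, 15 CPM in MD04, 13.6 CPM in MD28 and 22.3 CPM in EN12. It was lower in every step, by 0.93 ± 0.22 over the 9 pools on the log2 scale (adjusted p = 0.194, edgeR). The other 10 lower genes that the naming rule chose were Fam114a1, Cdon, AI597468, Tspyl4, Il12rb2, Moxd1, Nrcam, Slc26a7, Rian and Clec11a, with log2 differences from -0.57 (Slc26a7) to -0.29 (Moxd1) and adjusted p from 0.36 to 0.377 (edgeR). Among higher genes outside the lists the rule also chose Sh2b2, an adaptor of receptor tyrosine kinases, with a log2 difference of 0.79 ± 0.10 and no overlap of the groups (adjusted p = 0.0823, edgeR). Smoc1, a secreted calcium-binding protein, had 0.57 ± 0.06 (adjusted p = 0.0823, edgeR).

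Mitosis genes had a median below 0 in all steps but ED20 to ED24. Of 25 tested, 2 were lower at an unadjusted p under 0.05 and 0 higher (2.26% and 4.37% of all genes). Their median was -0.31 in the 9 libraries, -0.56 in MD00 to MD04, -0.43 in MD24 to MD28 and -0.20 in EN08 to EN12, but 0.47 in ED20 to ED24, the library with hair shaft RNA. In ED00 set against ED20 it was -0.47. The part of growing hair follicles in the ED24 value was not tested. Anln, a protein of the cleavage furrow, had 26.0 to 50.8 CPM in the late fast and 23 to 49.9 CPM before the meal (-0.35 ± 0.13). Cholesterol synthesis genes were lower in 3 of 20 and higher in 0 (median -0.04), heat shock genes higher in 1 of 20 (median 0.07), immediate early genes higher in 1 of 22 (median 0.04) and NRF2 and glutathione genes higher in 4 of 14 (median 0.18), all at an unadjusted p under 0.05. Over all genes 4.37% were higher and 2.26% lower, so the heat shock and immediate early counts are near the background.

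Clock genes had no common direction over the 3 feeding groups. Of 20 tested, 4 were higher at an unadjusted p under 0.05 and 0 lower (median 0.18; 4.37% and 2.26% of all genes). They are transcription factors and their targets that turn over with the time of day, and each group's last 4 h fall at another clock phase. Dbp, an output gene driven by CLOCK and BMAL1, went from 31.8 to 75.1 CPM in MD00 to MD04 and from 42.2 to 87.2 CPM in MD24 to MD28. It went from 148 to 72.3 CPM in EN08 to EN12 and from 17.2 to 11.8 CPM in ED20 to ED24. Its level before the meal was thus higher in MD and lower in ED and EN. Per2, a repressor of the clock, went from 15.6 to 59.3 CPM and from 13.9 to 54.3 CPM in the MD steps, from 43.2 to 89.1 CPM in EN and from 24.7 to 22.8 CPM in ED. Arntl, which encodes BMAL1, was lower by 1.08 and 0.80 log2 units in MD and higher by 0.66 in EN and 0.06 in ED. Nr1d1, a repressor of Arntl, went from 86.2 to 30.3 CPM in EN and stayed within 77.0 to 91.3 CPM in MD.

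**Figure D5:**
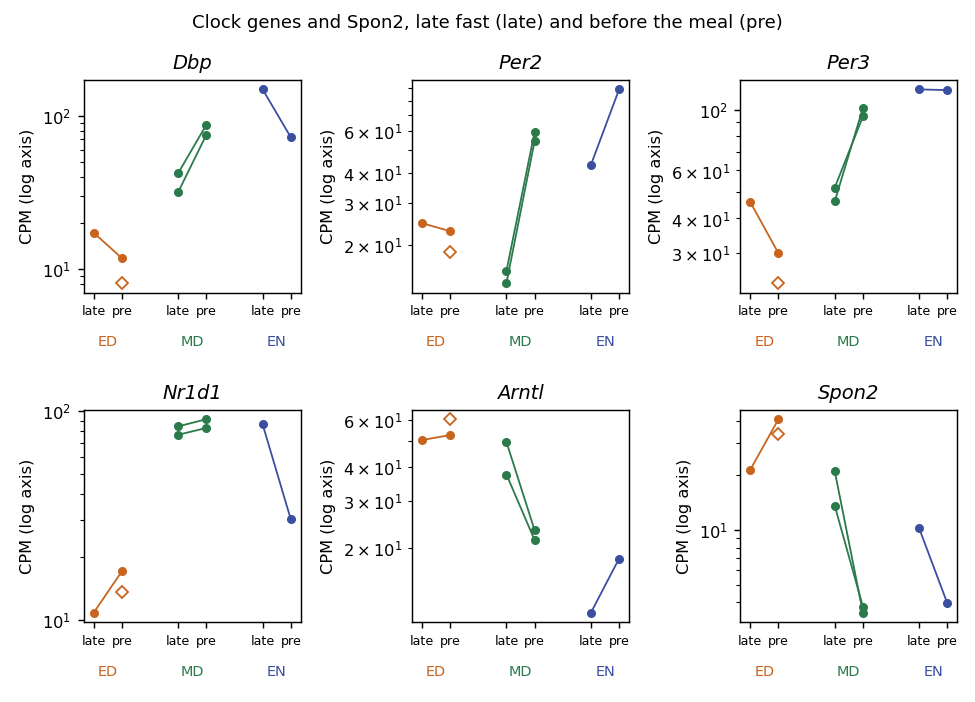
CPM (log axes) of 5 clock genes and of Spon2 in each library; lines join the consecutive steps from late fast (late) to before the meal (pre), and the open diamond is ED00. Dbp and Per3 go up in MD and down in ED, and Spon2 goes down in MD and EN and up in ED.

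A test of whether the difference depended on the feeding group called 0 of 15783 genes (adjusted p under 0.05, edgeR; 3 residual degrees of freedom), with 301 genes, or 1.91%, at an unadjusted p under 0.05. The likelihood ratio test of DESeq2 called 16 (0.101%), among them Per2, Dbp, Per3, Nr1d1 and Spon2 and the glucocorticoid-induced genes Errfi1 and Pdk4. For the 6 genes with the smallest p at a mean of at least 5 CPM the adjusted values from edgeR's test were 0.0637 for Alb, 0.161 for Per2, 0.218 for Spon2, 0.28 for Per3 and Dbp and 0.316 for Nr1d1. Errfi1, a feedback inhibitor of the EGF receptor, had 174 CPM in ED20 and 85.2 CPM in ED24, 127 and 300 CPM in MD00 and MD04, and 103 and 338 CPM in EN08 and EN12. Spon2, a secreted matrix protein, had 21.5 CPM in ED20 and 40.8 CPM in ED24, 13.6 and 3.78 CPM in MD00 and MD04, and 10.2 and 3.94 CPM in EN08 and EN12. Alb, albumin, rested on EN12, the pool with liver transcripts, with 74.9 CPM against 2.25 to 6.64 CPM in the other 8 libraries. Apob, a liver apolipoprotein under that mean level, ranked between Per2 and Spon2 (adjusted p = 0.164, edgeR), and had 16.2 CPM in EN12 and at most 1.56 CPM elsewhere. For the glucocorticoid-induced list as a whole the difference between the ED step and the others has no test of its own.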

How the data were processed

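The deposited table gives raw counts of 31872 gene models in exon, intron and antisense rows, per the file headers. The submitters' processing notes list TopHat2, SAMtools, HOMER and mm10, with no version numbers. No source used here names the counting program, its strand setting or how it treated multiply matching reads, so genes with near-identical copies or antisense partners are uncertain. RNA with an integrity number above 6.5 was pooled and made into libraries with a stranded total RNA kit, per the labels. A second deposited table holds RPKM values made with cqn by the authors, per its file name, and served for 1 alternative. All columns matched a library and 0 columns belonged to no sample.

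Where rows shared a symbol, that with the largest total was kept (29758 symbols, 2114 rows left out). Exon counts of the 9 libraries were filtered with filterByExpr (minimum count 10, minimum total 15), scaled by TMM and tested with edgeR 4.0.16 in R 4.3.3 (quasi-likelihood F test, terms for feeding group and class, Benjamini-Hochberg adjustment over all genes, threshold 0.05). CPM values use these scaling factors, log2 CPM a prior count of 2, and SEs are from least squares on log2 CPM with the same terms. Alternatives used DESeq2 1.42.0 and limma 3.58.1 (log2 of RPKM plus 0.1). The code for edgeR's tests was also run on simulated counts with known changes, and no result above rests on that run. No source says whether pools came from separate animals, so the p-values reflect only how these pools varied. The precision is limited by 5 and 4 pools and by depths of 13091637 to 22395991 counts.

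The libraries, gene lists and named genes were chosen with earlier results of these data known. Genes named were the 12 with the largest differences in each direction among those past the threshold, at a mean of at least 5 CPM and with the same sign in all 4 consecutive steps, a rule filled by smallest p since none passed. To these were added 8 genes of glucocorticoid action, 4 clock genes, up to 4 members of each of the other lists with the smallest p, and the 6 with the smallest p for dependence on feeding group at that same mean level. Other genes of the glucocorticoid and receptor lists, and genes given as a list's exception or under a named alternative, were named after their values were seen. Genes that the rule chose and the text does not name are covered by the counts of their lists, and 1 is not reported here. Lists covered 456 genes in 35 groups, with some genes in several. Coordinates and promoters are RefSeq GRCm38.p6, the sequence of mm10, matched by symbol (473 of 475 names).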

Additional observations from a re-analysis of the deposited data

Results flagged for a closer look

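In 4 cases a single pool lay far from the others of its class, a gap that chance produces in about 1 of 20 classes examined. Over both classes of the 78 named genes that rate alone would give at least as many, so the 4 are no excess. Nr1d1, a clock repressor, had 10.8 CPM in ED20, where the other 3 late-fast pools had 77 to 86.2 CPM. It was also low in the before-meal ED pools, with 13.5 CPM in ED00 and 17.1 CPM in ED24. Per3, a clock gene, had 119 CPM in EN08, where the other late-fast pools had 45.9 to 51.9 CPM. Per3 was as high in EN12, before the meal, with 118 CPM. ED20 and EN08 are the only late-fast pools of their feeding groups, so a stray pool cannot be told apart from feeding group and sampling time. Pdia6, a chaperone of the endoplasmic reticulum, had 77.8 CPM in MD00, where the others had 100.3 to 103 CPM. Alb had 74.9 CPM in EN12, where the other before-meal pools had 2.73 to 6.28 CPM.

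In 8 of the 78 named genes both MD steps went one way and both ED differences (ED20 to ED24 and ED20 to ED00) the other. The share of all genes with that pattern is not given here. Dbp, Per2, Per3, Spon2 and Alb are among the 6 genes picked for the smallest p for dependence on feeding group. For those genes the pattern follows in part from that choice, and their p values below are no separate support. In Alb the MD00 to MD04 step was only 0.02. The MD differences are 2 separate steps, but both ED differences use the same ED20 pool, so they are not independent. The mean MD step minus the mean ED step was 0.81 for Per1, 0.66 for Sgk1, 1.95 for Dbp, 2.19 for Per2, 1.8 for Per3, -1.10 for Arntl, -2.97 for Spon2 and 0.53 for Alb, in log2 units. The test of dependence on feeding group gave adjusted p values of 0.28 for Dbp, 0.161 for Per2, 0.28 for Per3, 0.864 for Arntl, 0.218 for Spon2, 0.0637 for Alb and 1.00 for both Per1 and Sgk1 (edgeR). It takes the 3 feeding groups together, and ED against MD alone was not tested. The ED steps cross the end of the night and the MD steps the early light phase, and the 2 cannot be told apart from the feeding group.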

How the results depend on the processing

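The median of the glucocorticoid-induced list kept its sign in every alternative run, from 0.34 without EN08 to 0.68 without ED20, as did 71 of the 78 named genes. With the feeding group term, leaving out EN08 or EN12 drops EN from the contrast, and leaving out ED20 drops ED. The count of genes called was 0 with RLE or upper-quartile scaling, a filter at a mean of 1 CPM, no feeding group term, the L number of the labels as a block, 24 libraries without daily terms, limma on RPKM, without ED24 and EN12, and with the fast muscle term. It was 51 with DESeq2, 8 with no filter and 5 in 24 libraries with a cosine and sine of ZT. With the 4 consecutive steps as pairs (a replicate block, without ED00) it was 12. Leaving out each library in turn gave 0 to 221 genes: 221 without MD24, 8 without ED00, 8 without ED24, 4 without ED20 and 0 otherwise; the cause was not tested. Genes whose step differed between feeding groups numbered 16 with DESeq2 and 0 to 3 on leaving out each library, 3 without ED00. In the runs without EN08, EN12 or ED20 a feeding group had pools of a single class, so its own step could not be compared with the others. Named genes changed sign as follows. Dbp was -0.23 without the feeding group term, -0.0126 with the L block, -0.26 to 0.43 on leaving out each library (-0.258 without MD00, -0.0404 without MD04, -0.133 without MD24 and -0.139 without MD28), -0.21 in 24 libraries, -0.81 there with the daily terms and -0.10 with limma. Nr1d1 ranged from -0.40 to 0.24 on leaving out each library (0.241 without EN08 and 0.242 without EN12) and was 0.17 without ED24 and EN12. Arntl was 0.20 and Per3 -0.16 in 24 libraries with the daily terms. Pygm was -0.0753 with the fast muscle term. Alb ranged from -0.000752 (without EN08) to 1.7 on leaving out each library, and Spon2 was 0.0406 without the feeding group term. With 5 and 4 pools, the number of pools limits the precision of every comparison.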

Other observations

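Small nuclear and nucleolar RNAs appeared among the genes called when ED00 was left out. Of those 8 genes, 4 were Snora81, Snora23, Snora62 and Rnu12, each with a log2 difference above 1, chosen here after their values were seen. Of the 12 genes called with the steps as pairs, which also leaves out ED00, Snora81, Snora23, Snora62, Rnu12 and Rnu11 were 5.

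Of the 51 genes called by DESeq2, Hp and Lrg1 encode secreted proteins and were chosen after their values were seen. Hp, haptoglobin, which binds free haemoglobin and is also a liver product, had 41.9 to 193 CPM in the late fast and 108 to 282 CPM before the meal, with a log2 difference of 0.72 (adjusted p = 0.00189, DESeq2). Lrg1, a glycoprotein of neutrophils and vessels, had a log2 difference of 0.65 by the same test (adjusted p = 0.00197, DESeq2). By edgeR's test the 2 genes had adjusted p values of 0.37 and 0.261. EN12, the pool with liver transcripts, had 254 CPM of Hp, and ED24, with 7.22 CPM summed over the 9 liver transcripts, had 282 CPM. The part of liver RNA in the difference was not tested.

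The 28 lower genes called without MD24 included the immediate early transcription factors Egr1 and Fos, with log2 differences of -0.48 and -0.59 (adjusted p = 0.0148 and 0.0417, edgeR). With all 9 libraries the differences were -0.29 ± 0.26 for Egr1 and -0.40 ± 0.29 for Fos. MD24 had the lowest level of both, 20.5 CPM and 21.9 CPM.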
